A study of Mus musculus with 8 samples.

Results

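The genes described here are the nuclear effectors of the Hippo pathway, the kinases that restrain them and a pair of their target genes, in nephron progenitors of the embryonic mouse kidney. They were chosen as the rows of the deposited count table that carry the symbols Yap1, Wwtr1, Tead1, Tead2, Tead3, Tead4, Lats1, Lats2, Ctgf and Cyr61. All 10 were found among the 24539 genes of the table, and all 10 passed the filter on low counts that left 13459 genes for testing. The cells were sorted by fluorescence at E18.5 from kidneys that carry Six2GFPcre, a transgene that drives GFP-tagged Cre in nephron progenitors, and their polyadenylated RNA was sequenced. Every group carried Six2GFPcre, and each of the 4 groups had 2 libraries. The KO-labelled group was Smo c/c; Six2GFPcre and the Het-labelled group was Smo c/+; Six2GFPcre, where c is a conditional allele of Smo, which encodes the transmembrane transducer of Hedgehog signalling. The WT-labelled group was Smo +/+; Six2GFPcre. The SmoM2-labelled group was Rosa26 SmoM2/+; Smo +/+; Six2GFPcre and carried SmoM2, an activated Smo that Cre recombination switches on. The series varied the dose of Smo in these cells, and the alleles act only where and when Six2GFPcre makes Cre. The labels do not say how many embryos gave each library or whether replicates were litter mates, so the p-values measure only the spread between these libraries.

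In the Hippo pathway, the kinases LATS1 and LATS2 phosphorylate the co-activators YAP and TAZ, which are the products of Yap1 and Wwtr1, and keep them out of the nucleus. Unphosphorylated YAP and TAZ enter the nucleus and bind TEAD factors on DNA to switch on genes such as Ctgf and Cyr61. In the kidney, YAP and TAZ are known to be needed for normal nephron formation, and the cadherin Fat4 of the stroma is known to act on nephron progenitors. Since the pathway acts largely through protein phosphorylation and location, transcript levels do not measure its activity.

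Smo checks the labels. Levels are given as CPM, counts per 1000000 counts of the scaled library. Smo stood at 12.1 ± 1.39 CPM (SD, n = 2) with the KO label, 19.2 ± 6.72 CPM with the Het label, 369 ± 8.43 CPM with the WT label and 616 ± 17.1 CPM with the SmoM2 label. In the Het-labelled libraries this level goes against the label, so the groups are called by their labels throughout, and every direction involving the Het-labelled libraries carries this doubt. The KO-labelled libraries were the shallowest, with 4422305 and 4442697 listed counts, and the others held between 5929770 and 10305398. Both KO-labelled libraries had the male pattern of Xist and Y-linked counts, both Het-labelled libraries had the female pattern, and the WT- and SmoM2-labelled groups had a library of each. Sex could be fitted beside the group because of those mixed groups. With it as a covariate, 5 of the 10 genes were called for KO against WT and 5 for Het against WT, against 4 and 5 without it. Over all tested genes, the counts were 3077 and 3561, against 3100 and 3402. For KO against Het, where sex and group coincide, 1117 genes were called with it and 1269 without it, and 690 in both. The fitted effect of sex rests on the WT- and SmoM2-labelled libraries, where sex also follows the replicate number, so sex is not settled by this fit. All 10 markers of nephron progenitors were detected in every library, with summed levels of 3985 to 6535 CPM. The 8 endothelium markers summed to between 10.9 and 35.8 CPM. Most of that sum was Plvap, with means of 24.7 CPM (KO-labelled), 29.3 CPM (Het-labelled), 14.4 CPM (WT-labelled) and 10.7 CPM (SmoM2-labelled).

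A further set of values moved with the groups and stands beside the results that follow. A list of 15 genes that tissue dissociation is known to induce is called the dissociation genes here. The name does not give the cause of their levels in these libraries, which was not tested. Their summed level was 5904 and 7824 CPM (KO-labelled), 10296 and 10154 CPM (Het-labelled), 3914 and 4189 CPM (WT-labelled) and 4323 and 6293 CPM (SmoM2-labelled). Of these 15 genes, 8 were called higher in the KO-labelled and 10 in the Het-labelled than in the WT-labelled libraries by edgeR. Over all tested genes, 11.6% and 13.1% were called higher. In the SmoM2-labelled libraries edgeR called 0, beside 0.223% of all tested genes, and 6 of the 15 had an unadjusted p under 0.05. The 10 markers of the early nephron, which progenitors form as they differentiate, summed to 1423 and 1766 CPM (KO-labelled), 544 and 826 CPM (Het-labelled), 534 and 736 CPM (WT-labelled) and 508 and 689 CPM (SmoM2-labelled). Against the WT-labelled libraries, 8 of these 10 were called higher in the KO-labelled and 2 in the Het-labelled libraries, beside 11.6% and 13.1% of all tested genes. The Het-labelled count is near that share. Their part in the results on the Hippo genes was not tested. Among the erythroid markers, Hba-a1 and Hba-a2 had equal levels in every group. With the KO or Het label, erythroid markers summed to 13.7 to 45.1 CPM and collecting duct markers to 5.60 to 9.96 CPM. With the WT or SmoM2 label, the sums were 2.77 to 7.87 CPM and 17.4 to 46.3 CPM. Wnt11 ranged most widely of the collecting duct markers. Its means were 2.09 CPM (KO-labelled), 0.940 CPM (Het-labelled), 8.64 CPM (WT-labelled) and 29.1 CPM (SmoM2-labelled). Gata3, Calb1, Aqp2 and Wnt9b were close to the detection limit in every group. These sums do not show which cells differed, and the part of such cells was not tested either. Among 12 stroma markers, which summed to between 161 and 877 CPM without parting the groups, Foxd1 fell by 4.48 in the KO-labelled and by 3.30 in the Het-labelled libraries on the log2 scale against the WT-labelled ones. The adjusted p-values from edgeR were 4.90e-05 and 0.000101.

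Tests were made with edgeR's quasi-likelihood test, with Benjamini-Hochberg adjustment across the 13459 tested genes and a threshold of 0.05. Against the WT-labelled libraries, 4 of the 10 genes were called in the KO-labelled libraries, 1 higher and 3 lower. Over all tested genes, 23% were called there, 11.6% up and 11.4% down. For the Het-labelled libraries, 5 of the 10 were called, 2 higher and 3 lower, against 25.3% of all genes, with 13.1% higher and 12.2% lower. The SmoM2-labelled libraries had 0 of the 10 called by edgeR, against 0.223% of all genes, with 0.156% higher and 0.0669% lower. The unadjusted p was under 0.05 for 2 of the 10 there, and DESeq2 also called 0. Between the KO- and Het-labelled libraries, 0 of the 10 were called by edgeR or by DESeq2, against 9.43% of all genes, with 4.33% above and 5.1% below the Het-labelled level. The unadjusted p was under 0.05 for 1 of the 10. The KO- against SmoM2-labelled comparison called 4 of the 10, with 1 higher and 3 lower, against 32.5% of all genes, with 16.5% higher and 16% lower. A test over all 4 groups called 7 of the 10, against 41% of all genes. The comparisons with the WT-labelled libraries share those libraries and are not independent of each other. The Het- and SmoM2-labelled libraries were not compared as a pair.

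The median log2 change of the 10 genes was -0.29 in the KO-labelled and -0.15 in the Het-labelled libraries against the WT-labelled ones, beside medians of 0.03 and -0.02 over all tested genes. In the SmoM2-labelled libraries, the median was -0.06 beside 0.00. It was -0.12 beside 0.02 for the KO- against Het-labelled and 0.03 beside 0.04 for the KO- against SmoM2-labelled comparison. The lists mix genes that rose with genes that fell, so the changes are described gene by gene and by role.

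**Figure D1:**
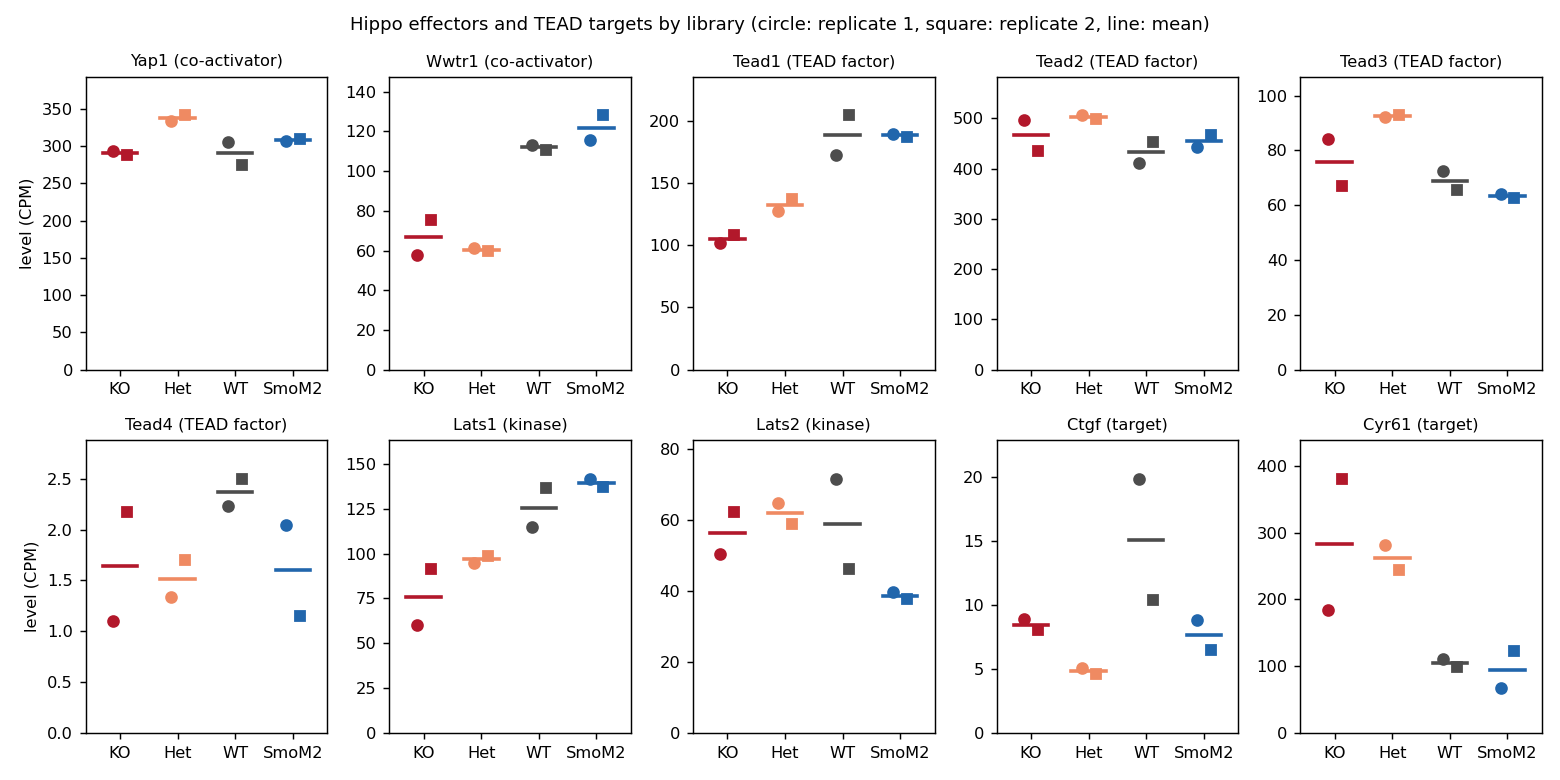
Level in CPM (vertical axis, starting at 0) of each of the 10 genes in each library, by labelled group; circles are replicate 1, squares replicate 2 and lines group means. Wwtr1 and Tead1 lay lower in all KO- and Het-labelled libraries than in all others, Cyr61 lay higher there, and Yap1 and Tead2 were not called in any comparison.

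**Figure D2:**
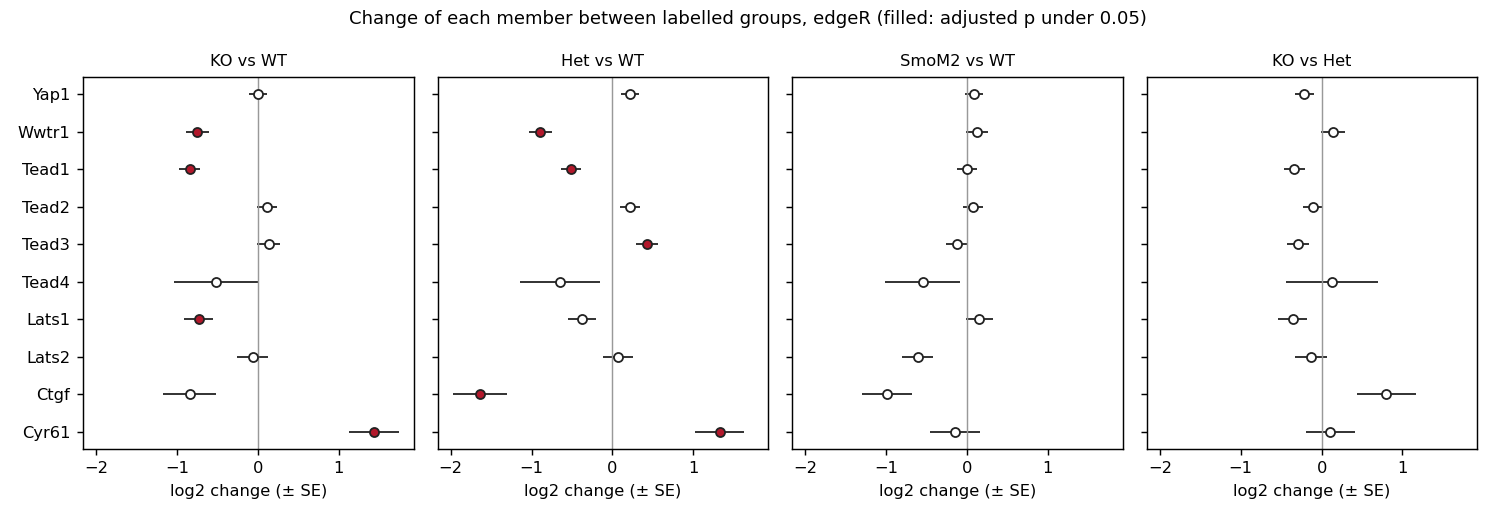
Log2 change from edgeR (horizontal axis) of each of the 10 genes in 4 comparisons of labelled groups, with bars of 1 standard error; filled points have an adjusted p under 0.05. Filled points number 4 for KO against WT, 5 for Het against WT, 0 for SmoM2 against WT and 0 for KO against Het.

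The co-activators parted from each other. Wwtr1, which encodes TAZ, was at 58.0 and 75.3 CPM in the KO-labelled libraries and at 61.0 and 59.7 CPM in the Het-labelled ones. The WT-labelled libraries held it at 113 and 111 CPM and the SmoM2-labelled ones at 116 and 128 CPM. No KO- or Het-labelled library reached the level of any WT- or SmoM2-labelled library. Against the WT-labelled libraries, Wwtr1 fell by 0.75 (SE 0.14) on the log2 scale in the KO-labelled and by 0.89 (SE 0.14) in the Het-labelled libraries, with edgeR adjusted p-values of 0.00438 and 0.00150. Between the KO- and SmoM2-labelled libraries, it was lower in the KO-labelled ones by a log2 change of -0.87 (edgeR adjusted p 0.00121). The KO- and Het-labelled libraries overlapped (edgeR adjusted p 0.571). In such bulk samples, fewer cells of a type and less RNA per cell cannot be told apart. With the mean log2 level of the dissociation genes as a covariate, the Het- against WT-labelled change of Wwtr1 was -1.40 and lost its call (edgeR adjusted p 0.0872), while the other calls of Wwtr1 were kept. That covariate is tied to the groups. Over all tested genes, calls with it fell from 3100 to 555 for KO against WT and from 3402 to 53 for Het against WT. A call lost with it is therefore not particular to a gene. The part of the dissociation genes in these results was not tested beyond that fit.

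Yap1, which encodes YAP, was at 294 and 289 CPM (KO-labelled), 333 and 341 CPM (Het-labelled), 306 and 275 CPM (WT-labelled) and 307 and 309 CPM (SmoM2-labelled). The Het-labelled libraries were the highest, and the KO-labelled values lay within the range of the WT-labelled ones. Yap1 was not called in any comparison, with edgeR adjusted p-values of 0.982, 0.180 and 0.941 for the KO-, Het- and SmoM2-labelled libraries against the WT-labelled ones. Per kilobase of gene length, Yap1 was the more abundant of the co-activators in every library. Wwtr1 made up 14.7% and 18.52% of their summed level per kilobase in the KO-labelled and 13.8% and 13.2% in the Het-labelled libraries. Its share was 24.4% and 26.0% in the WT-labelled and 24.7% and 26.6% in the SmoM2-labelled libraries, so the shares of the KO- and Het-labelled libraries did not overlap with those of the others.

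Elements that TEAD factors are known to bind were looked up in the 250 bases before the start sites of these genes. Sequences were from RefSeq on GRCm38.p6 and were at hand for 7 of the 10 genes. Tead1, Tead4 and Ctgf had no sequence there and were not searched. The element searched was GGAATG, with its reverse complement CATTCC, on both strands. Of all 32851 promoters in the table, 12.6% held it in a window of the same length and 1.02% held it more than once. The windows of Cyr61, a TEAD target, and of Wwtr1, the co-activator whose transcript fell, are shown 5′ to 3′ on the gene's strand with the element in capitals. The window of Cyr61, which RefSeq calls Ccn1, is chr3:145649986-145650235 on the minus strand and holds CATTCC starting 103 bases before the start site. That of the first start of Wwtr1 is chr3:57575911-57576160 on the minus strand and holds GGAATG starting 136 bases before it.
Cyr61: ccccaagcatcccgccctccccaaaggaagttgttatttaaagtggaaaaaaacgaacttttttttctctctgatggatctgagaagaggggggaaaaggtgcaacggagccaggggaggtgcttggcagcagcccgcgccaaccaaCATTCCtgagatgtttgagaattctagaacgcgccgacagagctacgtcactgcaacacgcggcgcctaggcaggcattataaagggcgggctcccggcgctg
Wwtr1: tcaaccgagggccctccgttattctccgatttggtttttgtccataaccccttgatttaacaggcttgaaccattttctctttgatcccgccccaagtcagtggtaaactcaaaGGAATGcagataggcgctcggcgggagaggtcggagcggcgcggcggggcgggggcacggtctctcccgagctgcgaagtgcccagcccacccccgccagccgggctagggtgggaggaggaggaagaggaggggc
The window of Yap1 held 1 such element and 2 of the 3 windows of Tead3 held at least 1, while the letters were not in the windows of Tead2, Lats1 and Lats2. These matches describe the sequence only and do not show binding.

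Among the TEAD factors, which carry YAP and TAZ to DNA, Tead2 was the most abundant and Tead1 changed most clearly. Tead1 was at 102 and 108 CPM (KO-labelled), 128 and 137 CPM (Het-labelled), 172 and 205 CPM (WT-labelled) and 190 and 187 CPM (SmoM2-labelled). Its lowest values were in the KO-labelled libraries, its next lowest in the Het-labelled ones, and the WT- and SmoM2-labelled values overlapped. Tead1 fell by 0.84 (SE 0.13) on the log2 scale from the WT- to the KO-labelled libraries, with an edgeR adjusted p of 0.00131, and differed by -0.84 between the KO- and SmoM2-labelled ones (edgeR adjusted p 0.000710). From the WT- to the Het-labelled libraries, it fell by 0.51 (SE 0.12), with an edgeR adjusted p of 0.0126. That call was lost without Het-labelled replicate 1 (-0.49, edgeR adjusted p 0.0895), Het-labelled replicate 2 (-0.58, 0.0558) or WT-labelled replicate 2 (-0.40, 0.0779), and with the dissociation covariate (-0.63, 0.372). The difference between the KO- and Het-labelled libraries did not pass the threshold (edgeR adjusted p 0.113, unadjusted p 0.0218), although their values did not overlap.

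Tead2 was at 497 and 434 CPM (KO-labelled), 506 and 498 CPM (Het-labelled), 412 and 452 CPM (WT-labelled) and 442 and 467 CPM (SmoM2-labelled). It was not called in any comparison, and the lowest edgeR adjusted p was 0.217, for the Het- against the WT-labelled libraries. Tead2 held between 81.9% and 85.6% of the summed TEAD level per kilobase in every library. The share of Tead1 was 3.80% and 4.60% (KO-labelled), 4.60% and 4.99% (Het-labelled), 7.42% and 8.12% (WT-labelled) and 7.73% and 7.32% (SmoM2-labelled). The summed TEAD level was 252 ± 24.0 CPM per kilobase (SD, n = 2) with the KO label, 277 ± 1.71 with the Het label, 243 ± 14.0 with the WT label and 251 ± 7.30 with the SmoM2 label. The summed level of KO-labelled libraries overlapped with that of WT-labelled ones.

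Tead3 was at 84.3 and 67.0 CPM (KO-labelled), 92.2 and 92.8 CPM (Het-labelled), 72.4 and 65.6 CPM (WT-labelled) and 64.2 and 62.5 CPM (SmoM2-labelled). The Het-labelled libraries were above all others, and the KO- and WT-labelled ones overlapped. Tead3 rose by a log2 change of 0.42 (SE 0.13) from the WT- to the Het-labelled libraries, with an edgeR adjusted p of 0.0399. The call was lost when any Het-, WT- or SmoM2-labelled library was left out, with changes from 0.33 to 0.49, with library totals implied by the deposited RPKM values (0.40, edgeR adjusted p 0.0549) and with the dissociation covariate (0.79, edgeR adjusted p 0.280). Tead4 was close to the detection limit, with between 5 and 24 counts a library and between 1.11 and 2.50 CPM, and it was not called (edgeR adjusted p 0.594 over all 4 groups). At these counts, a change of its level was not detectable unless large.

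The LATS kinases also parted from each other. Lats1 was at 60.0 and 91.1 CPM (KO-labelled), 95.0 and 98.6 CPM (Het-labelled), 115 and 136 CPM (WT-labelled) and 142 and 137 CPM (SmoM2-labelled). Neither KO-labelled library reached any other library, and KO-labelled replicate 1 stood below replicate 2. Lats1 fell by 0.73 (SE 0.18) on the log2 scale from the WT- to the KO-labelled libraries, with an edgeR adjusted p of 0.0136. This call was lost without KO-labelled replicate 1 (-0.46, edgeR adjusted p 0.0877), without WT-labelled replicate 2 (-0.63, 0.0563) and with the dissociation covariate (-1.0, 0.0716). The KO- against SmoM2-labelled difference was -0.88 (edgeR adjusted p 0.00358) and kept its call in every alternative tried, with a range from -1.23 to -0.62 when a library was left out. In the Het-labelled libraries, the change against the WT-labelled ones was -0.38 and did not pass the threshold (edgeR adjusted p 0.130). It was called without either KO-labelled library (edgeR adjusted p 0.0459 and 0.0468) and with no filter on low counts (0.0486). The KO- against Het-labelled change was -0.36 (edgeR adjusted p 0.220), and it was -0.70 and called without KO-labelled replicate 2 (0.0455) and -0.09 without KO-labelled replicate 1.

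Lats2 was at 50.4 and 62.4 CPM (KO-labelled), 64.9 and 58.9 CPM (Het-labelled), 71.7 and 46.2 CPM (WT-labelled) and 39.8 and 37.6 CPM (SmoM2-labelled). The WT-labelled libraries spanned the KO- and Het-labelled values, and the SmoM2-labelled libraries were the lowest. Lats2 was called in the test over all 4 groups (edgeR adjusted p 0.0486) but in none of the 5 pairwise comparisons that were run. The Het- and SmoM2-labelled groups, with its highest and lowest means (61.9 and 38.7 CPM), were not compared as a pair. The change from the WT- to the SmoM2-labelled libraries was -0.61 (edgeR adjusted p 0.354, unadjusted p 0.00811), and it was -0.87 and called without WT-labelled replicate 2 (edgeR adjusted p 0.0486) and -0.25 without WT-labelled replicate 1. With no filter on low counts it was called as well (-0.60, edgeR adjusted p 0.0112). The KO- against SmoM2-labelled change was 0.54 (edgeR adjusted p 0.0547). It was called without WT-labelled replicate 1 (0.54, edgeR adjusted p 0.0177) or WT-labelled replicate 2 (0.50, 0.0262), and with the replicate number as a block (0.55, 0.0415). It was also called with no filter on low counts (0.51, edgeR adjusted p 0.00927), with totals implied by RPKM (0.64, 0.0387) and with only the groups compared (0.52, 0.0359). The level of Lats1 per kilobase was 0.915 and 1.12 times that of Lats2 in the KO-labelled and 1.13 and 1.29 times in the Het-labelled libraries. It was 1.23 and 2.27 times in the WT-labelled and 2.74 and 2.81 times in the SmoM2-labelled libraries. In the GENCODE annotation of GRCm38, Lats2 shares 1301 exon bases with Gm49361 on its own strand, a gene that the table does not list, so its count may hold or lack reads of that stretch.

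From the WT- to the Het-labelled libraries, the TEAD targets moved in opposite directions, Cyr61 up and Ctgf down. The changes in the KO-labelled libraries had the same signs, but that of Ctgf did not pass the threshold. Cyr61 encodes the matricellular protein CCN1 and is known both as a YAP and TAZ target and as an immediate-early gene that stress and serum induce. It was at 185 and 381 CPM (KO-labelled), 282 and 243 CPM (Het-labelled), 111 and 98.8 CPM (WT-labelled) and 66.9 and 122 CPM (SmoM2-labelled). All KO- and Het-labelled libraries were above all others. Cyr61 rose by a log2 change of 1.43 (SE 0.31) in the KO-labelled and of 1.32 (SE 0.31) in the Het-labelled libraries against the WT-labelled ones, with edgeR adjusted p-values of 0.00836 and 0.0102. The KO- against SmoM2-labelled difference was 1.58 (edgeR adjusted p 0.00336) and ranged from 0.96 without KO-labelled replicate 2 to 2.04 without SmoM2-labelled replicate 2, with the call kept. The KO- against WT-labelled change was 0.81 without KO-labelled replicate 2, and its call was lost (edgeR adjusted p 0.0695). Without Het-labelled replicate 1, the Het- against WT-labelled change was 1.18 (edgeR adjusted p 0.0606).

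The levels of the dissociation genes moved with Cyr61 in part. Both were higher in the KO- and Het-labelled than in the WT-labelled libraries. The library with the highest Cyr61 level, KO-labelled replicate 2, had a summed dissociation level of 7824 CPM, and KO-labelled replicate 1 had 5904 CPM. The SmoM2-labelled replicate with the higher Cyr61 level also had the higher summed level, at 6293 CPM. The WT-labelled pair went the other way, with 111 CPM of Cyr61 beside 3914 CPM and 98.8 CPM beside 4189 CPM. The Het-labelled libraries had the highest summed levels, 10296 and 10154 CPM, with less Cyr61 than KO-labelled replicate 2. SmoM2-labelled replicate 2 had a higher summed level than KO-labelled replicate 1, with 122 against 185 CPM of Cyr61. With the dissociation covariate, the change of Cyr61 from the WT- to the KO-labelled libraries was 0.18 (edgeR adjusted p 0.783) and that to the Het-labelled libraries was -0.82 (edgeR adjusted p 0.419). The call between KO- and SmoM2-labelled libraries was kept. Since the covariate is itself tied to the groups, the share of each in the change of Cyr61 cannot be told apart.

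Ctgf, which encodes the related protein CCN2 and is called Ccn2 by RefSeq, was at 8.85 and 8.05 CPM (KO-labelled), 5.07 and 4.58 CPM (Het-labelled), 19.8 and 10.3 CPM (WT-labelled) and 8.79 and 6.47 CPM (SmoM2-labelled). These levels rest on 40 and 37, 38 and 27, 213 and 95, and 86 and 56 counts. Both WT-labelled libraries were above all others, but they differed from each other by more than the KO-labelled libraries differed from the lower of them. Ctgf fell by 1.64 (SE 0.33) on the log2 scale from the WT- to the Het-labelled libraries, with an edgeR adjusted p of 0.00574. The change ranged from -2.05 without WT-labelled replicate 2 to -1.09 without WT-labelled replicate 1, with the call kept in both. With the dissociation covariate it was -0.51 and lost its call (edgeR adjusted p 0.812).

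In the KO-labelled libraries the Ctgf change against the WT-labelled ones was -0.84 (SE 0.33) and did not pass the threshold (edgeR adjusted p 0.0847). It was called without WT-labelled replicate 2 (-1.26, edgeR adjusted p 0.0155), with sex as a covariate (-1.13, 0.0118) and with no filter on low counts (-0.86, 0.0178), and it was -0.30 without WT-labelled replicate 1. The SmoM2- against WT-labelled change was -0.98 (edgeR adjusted p 0.354, unadjusted p 0.00821), was called with no filter on low counts (-0.98, 0.0216), and was -0.43 without WT-labelled replicate 1. WT-labelled replicate 1, with the highest Ctgf level, also had a higher summed level of the 12 stroma markers, 797 CPM against 465 CPM in replicate 2. KO-labelled replicate 1 had 854 CPM of these markers and replicate 2 had 161 CPM, while their Ctgf levels were 8.85 and 8.05 CPM. The part of stroma in the level of Ctgf was not tested. In the GENCODE annotation an antisense gene, Gm15270, shares 347 exon bases with Ctgf, and the strand setting of the counting is not given in the sources used here.

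Per kilobase, the level of Cyr61 was 24.7 and 56.1 times that of Ctgf in the KO-labelled and 65.8 and 62.9 times in the Het-labelled libraries. It was 6.62 and 11.3 times in the WT-labelled and 9.02 and 22.4 times in the SmoM2-labelled libraries. The ratio was higher in every KO- and Het-labelled library than in any other, though SmoM2-labelled replicate 2 came close to KO-labelled replicate 1.

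**Figure D3:**
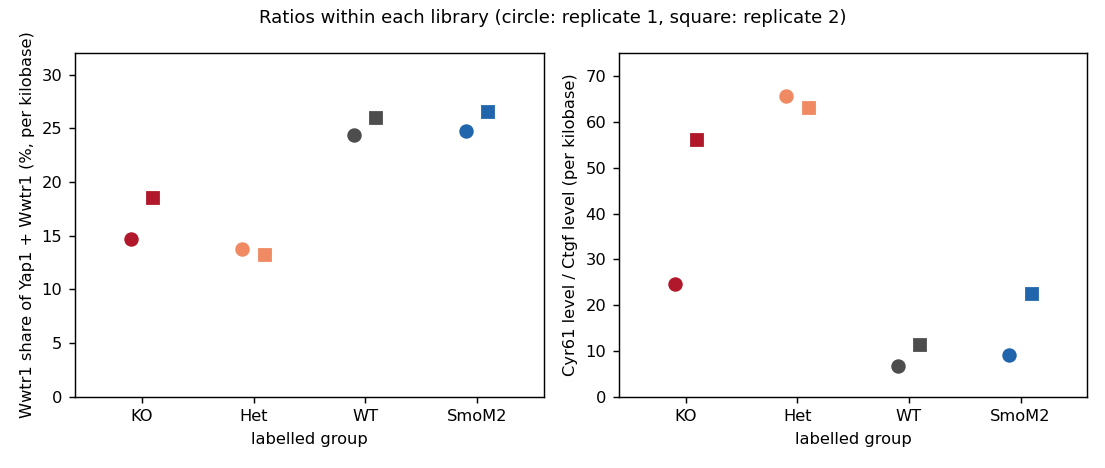
Ratios within each library by labelled group, with circles for replicate 1 and squares for replicate 2. Left, the share of Wwtr1 in the summed level per kilobase of Yap1 and Wwtr1 in percent; right, the level of Cyr61 per kilobase divided by that of Ctgf. The share ran from 13.2% to 18.52% with the KO and Het labels, and from 24.4% to 26.6% otherwise.

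**Figure D4:**
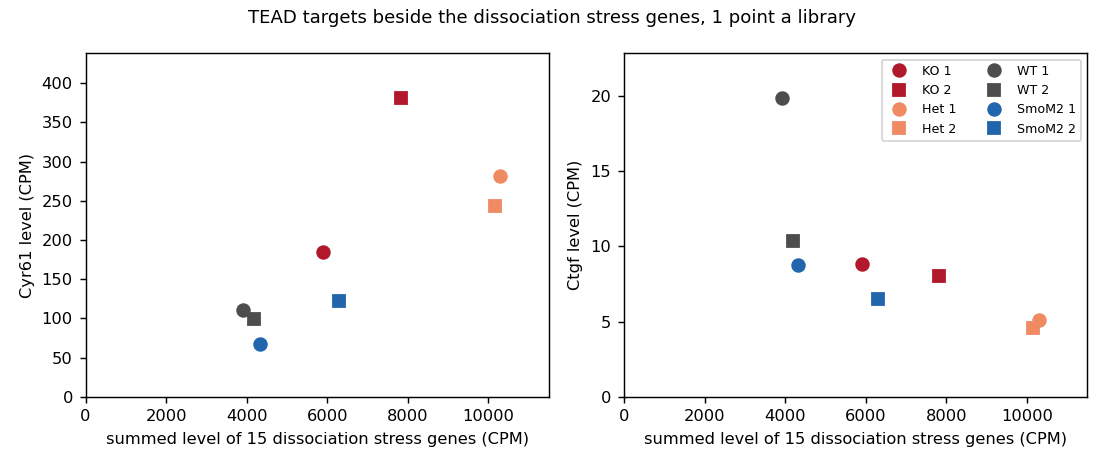
Level in CPM of Cyr61 (left) and Ctgf (right) on the vertical axis against the summed level in CPM of 15 dissociation genes on the horizontal axis, with 1 point for each library. The Het-labelled libraries had the highest dissociation sums, 10296 and 10154 CPM, and the lowest Ctgf levels, and the highest Cyr61 level was in KO-labelled replicate 2.

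Other genes of the pathway were followed in a list of 20 core and upstream components, all of which were tested. In the KO-labelled libraries, 8 of the 20 were called against the WT-labelled ones, and all 8 were lower, beside 23% of all tested genes called and 11.4% called lower. The median log2 change of the 20 was -0.36, beside 0.03 over all tested genes. They were the MOB co-activator gene of the LATS kinases Mob1b (log2 change -1.23), the atypical cadherin gene Fat4 (-1.16), the upstream kinase genes Taok1 (-0.96) and Map4k4 (-0.43), the scaffold genes Wwc2 (-0.66) and Dlg5 (-0.56), and the angiomotin genes Amot (-0.84) and Amotl1 (-0.61), whose products hold YAP in the cytoplasm. The edgeR adjusted p-values of these 8 lay between 0.000978 and 0.0415. The count was 3 without KO-labelled replicate 1 and 2 with the dissociation covariate, where Mob1b and Taok1 kept their calls. Over all tested genes, 555 were called with that covariate, against 3100 without it. The core kinases Stk3 and Stk4, their partner Sav1, and Nf2, which recruits LATS kinases to the membrane, were not called, with edgeR adjusted p-values of 0.229, 0.591, 0.463 and 0.494.

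Fat4 was at 82.3 and 102 CPM (KO-labelled), 134 and 138 CPM (Het-labelled), 141 and 272 CPM (WT-labelled) and 393 and 321 CPM (SmoM2-labelled). Its WT-labelled libraries stood far apart, and the KO- against WT-labelled change was -0.64 without WT-labelled replicate 2 and -1.56 without WT-labelled replicate 1. That call was lost without KO-labelled replicate 1. Against the SmoM2-labelled libraries, the change of Fat4 in the KO-labelled ones was -1.95 (edgeR adjusted p 0.000311). Foxd1, a stroma marker, also had its highest levels in the SmoM2-labelled libraries, and its part in the level of Fat4 was not tested. The stroma markers did not move as a set. With the SmoM2 label, Acta2, Tagln, Ntn1, Pdgfra, Pdgfrb and Tbx18 had lower means than with the WT label. Col1a1, Col1a2, Col3a1, Dcn and Lum had higher ones. Taok1, a kinase gene upstream of the core kinases, was at 85.4 and 109 CPM (KO-labelled), 135 and 127 CPM (Het-labelled), 182 and 198 CPM (WT-labelled) and 219 and 212 CPM (SmoM2-labelled). The 4 groups did not overlap in Taok1, and it was also called lower in the Het- than in the WT-labelled libraries (-0.54, edgeR adjusted p 0.0140). That second call was lost without Het-labelled replicate 1 or 2 or WT-labelled replicate 2.

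In the Het-labelled libraries, 4 of the 20 core and upstream genes were called against the WT-labelled ones, with 3 higher and 1 lower and a median of -0.09 beside -0.02 over all genes. That count is below the 25.3% called over all tested genes. The higher genes were Dchs1 (0.64), which encodes the cadherin ligand of Fat4, the kinase gene Taok2 (0.59) and Wtip (0.52), whose product is an Ajuba-family LIM protein that binds LATS kinases. The count was 1 without Het-labelled replicate 1, Het-labelled replicate 2 or WT-labelled replicate 2, and 0 with the dissociation covariate. Dchs1 was at 409 and 418 CPM (KO-labelled), 782 and 814 CPM (Het-labelled), 492 and 533 CPM (WT-labelled) and 591 and 526 CPM (SmoM2-labelled). Dchs1 parted the KO- from the Het-labelled libraries with a log2 change of -0.95 (edgeR adjusted p 0.00459), the only such call among the 20 that was kept whichever library was left out. Between these groups, 5 of the 20 were called, all lower in the KO-labelled libraries, beside 9.43% of all genes called and 5.1% called lower, and 1 was left without KO-labelled replicate 1 or Het-labelled replicate 1.

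In the SmoM2-labelled libraries, 0 of the 20 were called by edgeR against the WT-labelled ones, beside 0.223% of all genes, with a median of 0.00 in the list and over all genes. DESeq2 also called 0, and 2 of the 20 had an unadjusted p under 0.05. Comparing KO- with SmoM2-labelled libraries called 9 of the 20, with 1 higher and 8 lower, beside 32.5% of all genes, with 16.5% higher and 16% lower. Of the VGLL cofactors, which compete with YAP and TAZ for TEAD factors, Vgll4 alone of 4 genes passed the filter. Vgll4 was at 50.9 and 66.6 CPM (KO-labelled), 99.8 and 97.2 CPM (Het-labelled), 64.5 and 55.1 CPM (WT-labelled) and 89.0 and 72.4 CPM (SmoM2-labelled). It was higher in the Het- than in the WT-labelled libraries by a log2 change of 0.72 (edgeR adjusted p 0.00803) and lower in the KO- than in the Het-labelled ones by -0.75 (edgeR adjusted p 0.0203). The first call was lost without Het-labelled replicate 1 or WT-labelled replicate 2, and the second without KO-labelled replicate 1 or either Het-labelled library.

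A list of 20 other genes known as YAP and TAZ targets, mostly from cultured cells, had 19 tested genes, and Ankrd1 had at most 6 counts in any library and was not tested. Against the WT-labelled libraries, 7 of the 19 were called in the KO-labelled ones, 3 higher and 4 lower, with a median of -0.04 beside 0.03 over all genes. Over all tested genes, 23% were called, 11.6% up and 11.4% down. The count was 2 without KO-labelled replicate 1, 4 without either WT-labelled library and 1 with the dissociation covariate. In the Het-labelled libraries, 5 of the 19 were called, 3 higher and 2 lower, with a median of 0.01 beside -0.02, which is a share near the 25.3% called over all genes. The count was 2 without Het-labelled replicate 1, 3 without Het-labelled replicate 2 or WT-labelled replicate 1, and 0 with the dissociation covariate. In the SmoM2-labelled libraries, 0 were called by edgeR or by DESeq2, 6 had an unadjusted p under 0.05, and the median was 0.00, beside 0.223% of all genes called. The KO- against SmoM2-labelled comparison called 9, with 4 higher and 5 lower, beside 32.5% of all genes. The 5 lower include Foxf2, which passed the filter on low counts only through the SmoM2-labelled libraries, so that call is not used as support. Between the KO- and Het-labelled libraries 2 were called, both lower, beside 9.43% of all genes called and 5.1% called lower.

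Among the called genes of this list, the largest rises were those of Fjx1, which encodes a Golgi kinase that acts on Fat cadherins, and F3, which encodes tissue factor. Fjx1 was at 36.5 and 51.3 CPM (KO-labelled), 29.4 and 56.7 CPM (Het-labelled), 10.1 and 14.1 CPM (WT-labelled) and 9.50 and 15.6 CPM (SmoM2-labelled). It was higher by a log2 change of 1.86 in the KO-labelled and 1.83 in the Het-labelled than in the WT-labelled libraries, with edgeR adjusted p-values of 0.00321 and 0.00306. F3 was at 7.30 and 8.92 CPM (KO-labelled), 9.62 and 10.7 CPM (Het-labelled), 4.10 and 1.52 CPM (WT-labelled) and 2.45 and 2.31 CPM (SmoM2-labelled). Its changes were 1.50 and 1.82 (edgeR adjusted p 0.0223 and 0.00715), and without WT-labelled replicate 1 they were 2.39 and 2.72. Without WT-labelled replicate 2 they were 0.95 and 1.28, and the first lost its call. The KO- against WT-labelled call of F3 was also lost without either KO-labelled library. With the dissociation covariate, the changes of Fjx1 were 0.86 and 0.01 and lost their calls.

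Lower targets included Dock5, which encodes an activator of Rac, and Ccdc80, which encodes an extracellular matrix protein. Dock5 was at 66.6 and 72.2 CPM (KO-labelled), 169 and 117 CPM (Het-labelled), 144 and 157 CPM (WT-labelled) and 239 and 170 CPM (SmoM2-labelled). Its KO- against WT-labelled change was -1.12 (edgeR adjusted p 0.00311), and the Het-labelled libraries lay around the WT-labelled ones. Ccdc80 was at 40.5 and 38.3 CPM (KO-labelled), 35.0 and 40.7 CPM (Het-labelled), 83.8 and 55.5 CPM (WT-labelled) and 51.5 and 33.9 CPM (SmoM2-labelled). As with Ctgf, both WT-labelled libraries were above all others and WT-labelled replicate 1 was the higher. The changes of Ccdc80 were -0.82 in the KO-labelled and -0.88 in the Het-labelled libraries (edgeR adjusted p 0.0235 and 0.0144). Without WT-labelled replicate 1 both lost their calls, at -0.50 and -0.56. The first call was also lost without either KO-labelled library, and the second without Het-labelled replicate 1. Foxf2 was at 0 in the KO- and in the Het-labelled libraries and had means of 0.101 CPM (WT-labelled) and 1.66 CPM (SmoM2-labelled). It was thus close to the detection limit or absent without the SmoM2 label. The SmoM2-labelled mean was at least 2.53 times the level that 3 counts a KO-labelled library would give, 0.658 CPM. Of the other members of the CCN family, Nov and Wisp1 were tested and not called, with edgeR adjusted p-values of at least 0.506 in the pairwise comparisons.

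**Figure D5:**
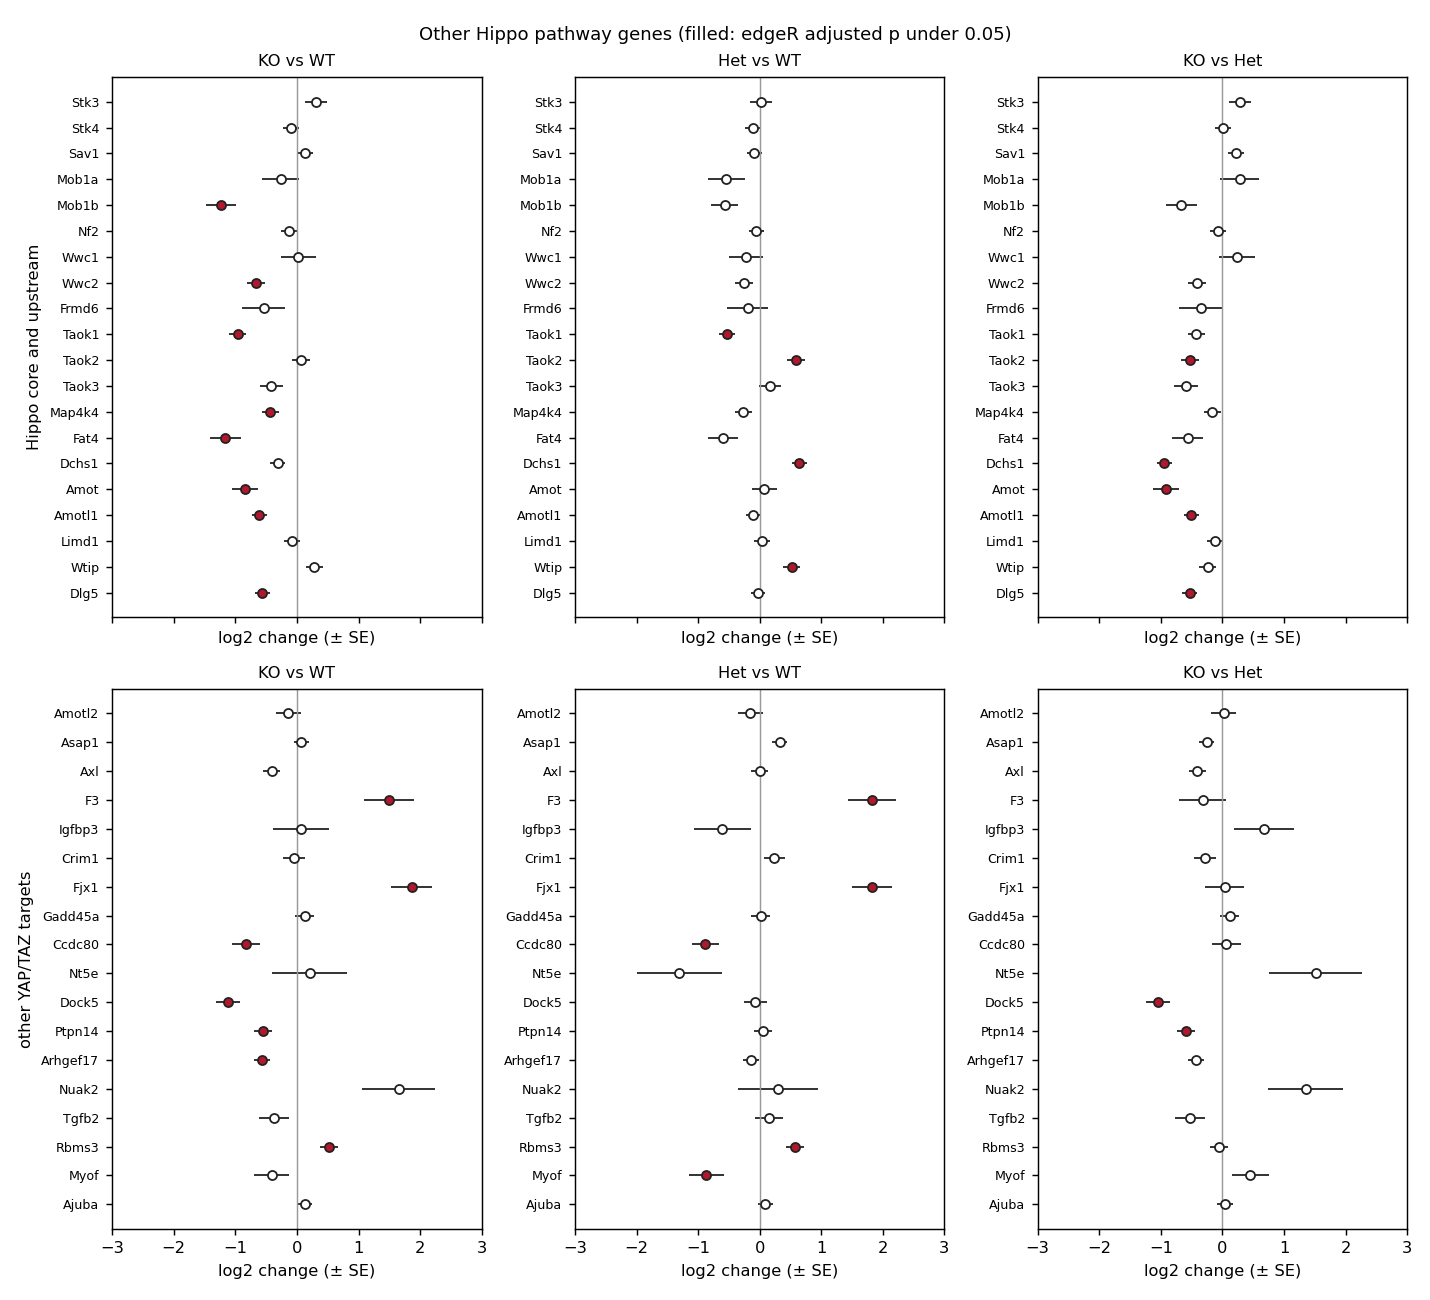
Log2 change from edgeR (horizontal axis) with bars of 1 standard error for the 20 core and upstream genes (top) and 18 other YAP and TAZ targets (bottom) in 3 comparisons of labelled groups; filled points have an adjusted p under 0.05, and Ankrd1 and Foxf2 are not drawn. In the top left panel all 8 filled points lie below 0; in the bottom left panel 3 lie above 0 and 4 below.

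The genes whose log2 CPM was most like that of each of the 10 genes were looked up among 12457 genes over the 8 libraries, as a description. These correlations share the libraries, their depth and the split of the groups. For Wwtr1 they were Picalm, Gnai3 and Abi3bp (Pearson's r 0.994, 0.992 and 0.992), and for Tead1 they were Foxn3, Elk4 and Yod1 (0.997, 0.992 and 0.990). Those of Lats1 were Slc44a1, Dcp1a and Ppp1r12a (0.993, 0.990 and 0.989), and those of Cyr61 were Mgat2, Astn1 and Alkbh6 (0.988, 0.982 and 0.977). Ctgf was most like Nos1, Zfp639 and Hp1bp3 (0.961, 0.946 and 0.934), and Yap1 most like Pthlh, Atp10d and Pcdhb7 (0.969, 0.962 and 0.950). None of the 10 genes was among the 3 nearest of another. Among the 10 genes themselves, Wwtr1 and Tead1 had an r of 0.87 and Tead1 and Lats1 of 0.93, while Ctgf and Cyr61 had an r of -0.50.

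RefSeq places Yap1 at chr9:7931999-8004638 of GRCm38.p6, Wwtr1 at chr3:57455644-57575910, Lats1 at chr10:7681200-7716461 and Lats2 at chr14:57689662-57746212. Tead1 lies at chr7:112679356-112906784, Tead2 at chr7:45215792-45233468, Tead3 at chr17:28331671-28350805 and Tead4 at chr6:128227143-128300813. Ctgf lies at chr10:24595442-24598683 and Cyr61 at chr3:145646971-145649985. All 10 are protein-coding genes. In the GENCODE annotation, exons of Yap1 overlap the antisense gene Gm20416 by 116 bases and those of Tead2 overlap the antisense gene Cd37 by 13 bases.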

How the data were processed

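Polyadenylated RNA of sorted nephron progenitors was measured in 8 libraries. Per the submitters' processing notes, STAR, featureCounts and Subread were used with mm10; versions, annotation and strand setting are not given in the sources used here. The authors deposited 1 table of raw read counts per gene, with RPKM values and gene lengths beside them; the deposited RPKM values served only to recover library totals for an alternative scaling. Genes were filtered with filterByExpr, scaled by TMM and tested in R 4.3.3 with edgeR 4.0.16, with 1 quasi-likelihood model over all 8 libraries and 4 residual degrees of freedom; all tests were two-sided. Standard errors are those the F statistic implies. The biological coefficient of variation was 13.5%. CPM are counts per 1000000 of the TMM-scaled library size, with a prior count of 2 for log2 CPM. A single read was 0.221 CPM in KO-labelled replicate 1 and 0.0931 CPM in WT-labelled replicate 1, so low genes are measured least precisely in the KO-labelled libraries. With 2 libraries against 2, the smallest exact permutation p is 0.333, so none was used.

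The genes described, the lists and the rule for named genes were chosen with earlier results of these data known. Named are the 10 genes, Smo, list members that passed the test or serve as examples, and the 3 most correlated genes with an average log2 CPM of at least 1. The alternatives were DESeq2 1.42.0, other scalings, no filter, a replicate block, sex or the mean log2 level of the dissociation genes as a covariate, only the groups compared, and leaving out each library. Leaving out the Het-labelled group, and applying the alternatives to the pathway lists, were added after seeing the data. The script was tested on simulated data.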

Additional observations from a re-analysis of the deposited data

How the results depend on the processing

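Wwtr1 and Tead1 in the KO- against WT-labelled comparison, and Wwtr1, Tead1, Lats1 and Cyr61 in the KO- against SmoM2-labelled one, kept their direction and call in every alternative run. Log2 changes were followed for comparisons called by the main test or by any alternative, a rule chosen after seeing the data. With the dissociation covariate, the genes called were 53 for Het against WT, 435 for KO against Het, 555 for KO against WT, 8 for SmoM2 against WT and 3126 over any group, and the members called were 0 of 10 for Het against WT, 2 for KO against WT and 4 over any group. Cyr61 was -0.82 and Ccdc80 0.26 in the Het- against WT-labelled comparison with that covariate, in the opposite direction to the main values. With no filter on low counts, 2217 genes were called for KO against Het and 356 for SmoM2 against WT, and 2 of the 10 members for SmoM2 against WT. For SmoM2 against WT, DESeq2 called 82 genes, the sex covariate 54 and the fit to only the groups compared 8. The causes of these shifts were not tested.

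When a library was left out, genes called ranged from 1305 to 2924 for KO against WT, 1411 to 3616 for Het against WT, 8 to 81 for SmoM2 against WT, 36 to 1472 for KO against Het, 2423 to 4439 for KO against SmoM2 and 3656 to 5510 over any group. Members called ranged from 2 to 6 for Het against WT, 0 to 1 for KO against Het and 0 to 1 for SmoM2 against WT. Leaving out a library of a pair leaves a lone sample there that is assumed to vary like the other groups. With the replicate block, SmoM2 against WT had 54 genes called, and 5 members were called for KO against SmoM2, where Lats2 was added; no other member count moved by over 1.5 times. Deviations of same-numbered libraries correlated at 0.39 for WT with SmoM2, whose same-numbered libraries also had the same sex pattern, and between -0.06 and 0.10 for the other pairs of groups, and the labels name no shared litter or day, so the block is given only as an alternative. Leaving out the Het-labelled group kept the member counts of 4, 0 and 4 for KO against WT, SmoM2 against WT and KO against SmoM2. Low counts limit Tead4 and Ctgf, and the KO-labelled libraries were the shallowest.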

Other observations

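Of the 10 nephron progenitor markers, edgeR called 5 against the WT-labelled level in the KO-labelled libraries, 4 higher and 1 lower, and 6 in the Het-labelled ones, all higher. Over all tested genes, 11.6% were called higher and 11.4% lower with the KO label, and 13.1% higher with the Het label. Their part in the results on the Hippo genes was not tested.

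Markers of other cells had low sums, some of which moved with the groups. The counts of calls against the WT-labelled libraries stand beside these shares of all tested genes. With the KO label, 11.6% were called higher and 11.4% lower. The shares were 13.1% and 12.2% with the Het label and 0.156% and 0.0669% with the SmoM2 label. The 6 erythroid markers summed to 45.1 and 13.7 CPM (KO-labelled), 24.8 and 19.9 CPM (Het-labelled), 4.10 and 5.22 CPM (WT-labelled) and 7.87 and 2.77 CPM (SmoM2-labelled). Against the WT-labelled libraries edgeR called 3 of 4 tested higher in the KO-labelled and 2 in the Het-labelled libraries. Hba-a1 and Hba-a2 had the same mean and SD in every group, such as 8.70 ± 6.15 CPM (SD) with the KO label. These counts and sums therefore hold the same signal under both names. The 8 collecting duct markers summed to 9.96 and 7.18 CPM (KO-labelled), 6.01 and 5.60 CPM (Het-labelled), 20.1 and 17.4 CPM (WT-labelled) and 33.3 and 46.3 CPM (SmoM2-labelled). Of 4 tested, 2 were called lower in the KO-labelled and 1 in the Het-labelled libraries, and 1 higher in the SmoM2-labelled ones. The 6 podocyte markers summed to between 43.8 and 60.2 CPM, and of 4 tested 1 was called higher and 2 lower in the KO-labelled and 1 lower in the Het-labelled libraries. The 6 immune markers summed to 25.7 and 14.1 CPM (KO-labelled), 48.1 and 46.3 CPM (Het-labelled), 32.04 and 32.75 CPM (WT-labelled) and 27.8 and 33.1 CPM (SmoM2-labelled), and of 4 tested 1 was called lower in the KO-labelled and 1 higher in the Het-labelled libraries. Most of the immune sum was Cd68, with means of 12.4 CPM (KO-labelled), 43.0 CPM (Het-labelled), 24.1 CPM (WT-labelled) and 26.0 CPM (SmoM2-labelled). Csf1r, C1qa, C1qb and Fcer1g had lower means with the Het than with the WT label. The median log2 change of the tested immune markers was -0.77 there, so the sum does not describe them as a set. Of the 8 endothelium markers 1 was tested, Plvap, and it was called higher in the KO- and in the Het-labelled libraries. The others were too low to be tested, so this call describes Plvap alone. The part of these cells in the results on the Hippo genes was not tested. Tbx18, a stroma marker, had at most 4 counts and was at 0 in Het-labelled replicate 1 and SmoM2-labelled replicate 2, while Foxd1 was detected in every library, with at least 17 counts. In the KO- against WT-labelled comparison Acta2, a smooth muscle marker in the stroma list, was the only stroma marker called higher, with a log2 change of 1.45 (edgeR adjusted p 0.0179).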
